A study of Caenorhabditis elegans with 2 samples.

Results

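The genes described here are 8 genes of Caenorhabditis elegans that store iron, carry iron and manganese across membranes, or handle haem. They are the ferritin genes ftn-1 and ftn-2, the Nramp metal transporter genes smf-1, smf-2 and smf-3, and the haem genes hrg-1, hrg-4 and hrg-7. They were chosen by symbol: a probe set was taken if the array's annotation gives it exactly 1 gene symbol and that symbol is on this list. All 8 genes were found, on 9 probe sets, out of 17118 genes that the annotation names on 20766 such probe sets. ftn-2 had 2 probe sets and the other 7 genes 1 each.

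The samples were whole wild-type worms of the N2 strain, synchronized and held in the dark in a liquid worm medium. One array holds worms given 500 µg/ml of anatase, a crystal form of titanium dioxide supplied as nanoparticles, and the other array holds control worms that got none. Neither the worms' stage nor how long they were exposed is stated in the sources used here. Both arrays are labelled replicate 3, other replicates were not analysed here, and with 1 array a group no difference below has a replicate check, an error or a test.

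Iron is needed for haem and iron-sulfur proteins but is toxic when free, so cells pair its uptake with storage in ferritin, a hollow protein shell. In C. elegans the ferritin genes are controlled at transcription: ftn-1, made in the intestine, is switched on by iron through the GATA factor ELT-2 and held down by the hypoxia factor HIF-1 when iron is short. Nramp proteins bring divalent iron and manganese across membranes together with protons. The worm cannot make haem and takes it from food through transporters of the HRG family.

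Exposure to anatase went with almost no difference in ferritin signal and with small differences in the haem genes. The exception among the 8 genes was smf-2, an Nramp transporter gene, whose signal was much lower on the anatase array and close to the dim end of that array. No member was at least 2-fold higher on the anatase array, and 1 of 8, smf-2, was at least 2-fold lower. Among all 13606 genes that passed the brightness filter explained below, 1.66% were at least 2-fold higher, 3.07% at least 2-fold lower and 4.73% either, so 1 member in 8 past 2-fold is not a result about the group.

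Values are probe-set intensities on a linear scale, and differences are anatase minus control in log2(intensity + 16), which makes folds of dim genes smaller than the raw ratios. A gene was compared if its brighter array lay at or above percentile 25 of that array, an intensity of 25.2 on the anatase array and 31.1 on the control array. All 8 members passed, smf-2 only through the control array. The median intensity over 22548 probe sets was 117.8 on the anatase array and 123.1 on the control array, and the 2%-trimmed mean was 494.6 on the anatase array and 495.1 on the control array. The median log2 difference was −0.01 over the 8 members and −0.02 over the 13606 genes. With no replicate arrays, a technical spread was taken from genes read by 2 probe sets: over 2293 of them, of all brightness levels, the SD of the difference read by 1 probe set was 0.32 log2 units. Both probe sets gave the same sign in 58.1% of these genes, so the direction of a difference read by 1 probe set is not well fixed. The differences of 6 of 8 members were smaller than this SD, and those of hrg-4 and smf-2 were larger. Probe sets bind with different strength, so intensities are compared here only between arrays, never between genes.

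**Figure D1:**
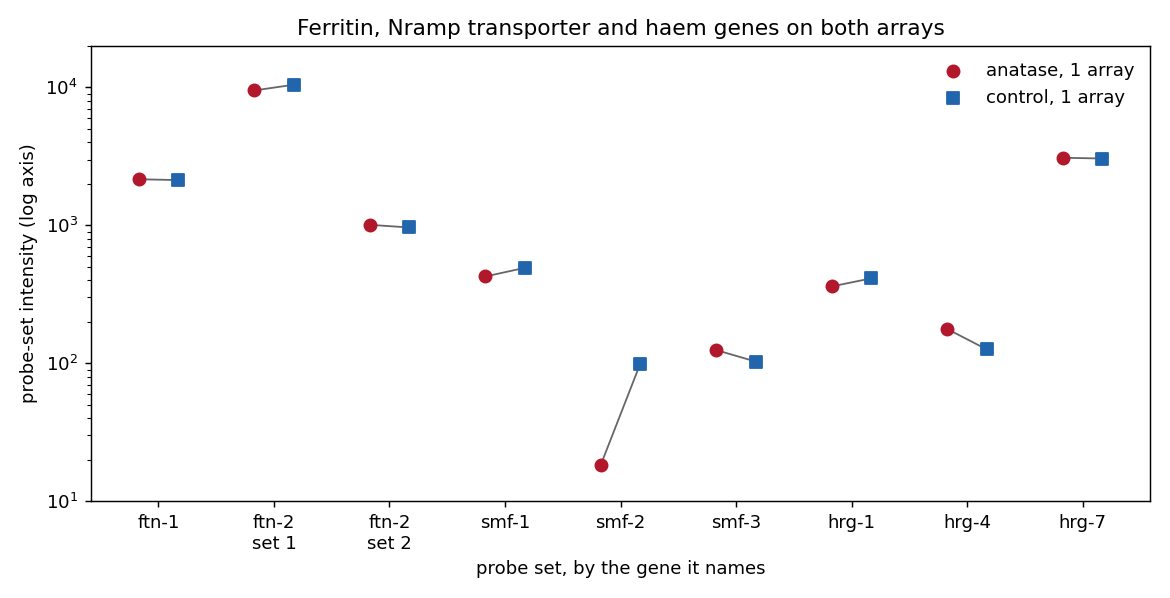
Intensity of each of the 9 probe sets naming a ferritin, Nramp transporter or haem gene, on a log axis, with a red circle for the anatase array and a blue square for the control array (1 array each, no error). The lines are nearly level for ftn-1, ftn-2 and hrg-7, and steep for smf-2 alone, at 18.4 with anatase and 98.9 without.

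The ferritins, which hold iron in store, read nearly alike on both arrays. ftn-1, the iron-inducible intestinal ferritin, had an intensity of 2158.7 on the anatase array and 2130.1 on the control array, a log2 difference of 0.02. Of the 13606 genes, 94.7% had a difference at least this large in size. ftn-2, the ferritin gene expressed in more tissues, was read by a probe set with 9510.8 on the anatase array and 10459.5 on the control array, a log2 difference of −0.14. Its other, dimmer probe set had 1008.7 on the anatase array and 965.5 on the control array, a log2 difference of 0.06. The probe sets of ftn-2 thus differed in sign, by 0.20 log2 units, and their mean was −0.04. With median centring of the arrays this mean turned to 0.02. The differences of ftn-1 and ftn-2 lay 0.06 log2 units apart. All 3 ferritin probe sets are of the types marked as able to pick up related transcripts (called shared below), so the signals of these similar genes may not be fully separate.

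Of the 3 Nramp transporter genes, smf-2 and smf-1 read lower on the anatase array and smf-3 higher, the last 2 by less than the spread of a probe set. smf-2, described mainly in the epithelium of the pharynx, had an intensity of 18.4 on the anatase array and 98.9 on the control array. The raw control signal was 5.38 times the anatase signal, and the log2 difference was −1.74. The probe set stood at percentile 19.8 of the anatase array and at percentile 46.3 of the control array. The anatase value lay below the brightness limit of 25.2, and the deposited table has no detection calls, so whether it lay above background is unknown and the size of the difference is not well fixed.

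smf-2 belongs to the dimmest of 4 equal brightness groups, where differences were wide. In that group 10.6% of 3402 genes were at least 2-fold lower and 5.88% at least 2-fold higher, the median difference was −0.19 and the SD 0.68. Among the 681 genes nearest to it in brightness (the fourth of 20 equal groups), the median difference was −0.17 and the SD 0.48. There, 25 genes were at least 2-fold lower, smf-2 among them, and 2 genes, or 0.29%, were as low as smf-2, itself included. Both groupings used the mean of both arrays, so the low anatase signal itself helped to place smf-2 in them. smf-2 also passed the filter only through the control array, so these shares do not measure how unusual its value is. The smf-2 value rests on 1 probe set and 1 array a group. Of 4 pharynx markers, 2 were higher and 2 lower, from −0.18 for tnt-4, a pharyngeal troponin gene, to 0.58 for myo-2, a pharyngeal myosin gene, and the summed intensity was 865.0 on the anatase array and 814.9 on the control array. These are mostly genes of pharyngeal muscle, 2 of them in the dimmest brightness group, and their part in the smf-2 value was not tested.

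smf-1, an Nramp transporter gene of epithelia, had 425.8 on the anatase array and 491.7 on the control array, a log2 difference of −0.20 from a shared probe set. Differences of this size were common: 51.3% of all genes differed by at least as much. smf-3, the main manganese uptake transporter of the intestine, had 124.5 on the anatase array and 102.9 on the control array, a log2 difference of 0.24. A further probe set names both smf-3 and daao-1 and was left out by the rule. It had 17.2 on the anatase array and 3.80 on the control array, both below the brightness limit of their array.

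smf-1 and smf-2 are next to each other in the genome. The gene on the other side of smf-2, nas-11, a member of the astacin protease family, had 394.2 on the anatase array and 648.4 on the control array, a log2 difference of −0.70. The gene beyond smf-1, slc-25A10, a member of the mitochondrial carrier family, was at 0.27. Over the nearest 2 protein-coding genes on each side of all members, 22 passed the brightness filter, 10 of them higher and 12 lower, with a median of −0.04. Past 2-fold was 1 of these 22, where 4.73% of all genes passed. It was ngn-1 beside smf-3, at 1.03 with a dim 36.1 on the anatase array and 9.50 on the control array. ngn-1 reached the brightness limit on the anatase array alone. cky-1, beside hrg-7, was at −0.90 with 28.7 on the anatase array and 67.7 on the control array. These neighbours were named after their values were seen.

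**Figure D2:**
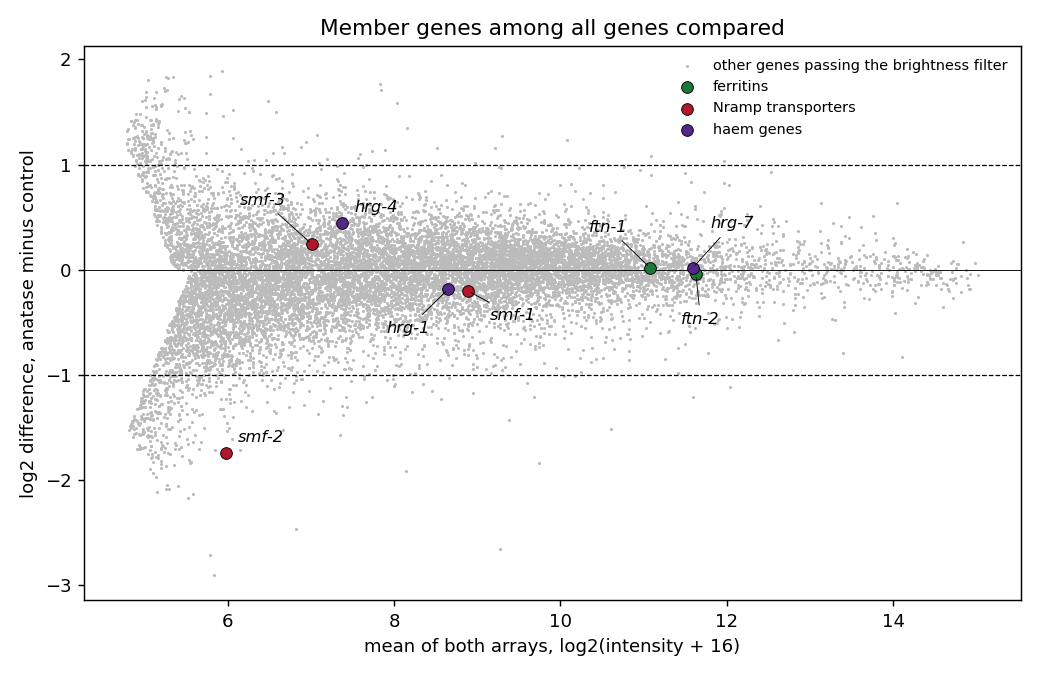
Log2 difference, anatase minus control, against the mean log2(intensity + 16) of both arrays for the genes passing the brightness filter (grey) and the 8 members (coloured by role), with dashed lines at 2-fold. smf-2 lies alone among the members below the lower line, at −1.74, in the dim range where the grey points spread most.

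The haem genes differed little or moderately. hrg-4, which brings haem into the intestine at the plasma membrane, had an intensity of 176.8 on the anatase array and 126.0 on the control array, a log2 difference of 0.44. This was the largest higher value among the members, and 22.8% of all genes differed by at least as much. Among the 680 genes of its brightness, 9.56% were as high. hrg-1, the haem transporter of intracellular vesicles, had 361.0 on the anatase array and 412.7 on the control array, a log2 difference of −0.19 from a shared probe set. hrg-7, which encodes a secreted protein of the aspartyl protease family that carries a haem signal from the intestine to neurons, had 3091.2 on the anatase array and 3052.6 on the control array. Its log2 difference of 0.02 was rank 12923 of 13606 genes by size. The importers hrg-4 and hrg-1 lay on opposite sides of equal signal, 0.63 log2 units apart. In the genome hrg-4 stands between hrg-5 and hrg-6, 2 genes of its family that were not analysed here because no probe set names either alone.

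The signs of 7 members held under each scaling. The exception was ftn-2, which turned with median centring. These 7 members were each read by 1 probe set, so pseudocount and probe set choices could not turn their signs. smf-2 ran from −2.36 with a pseudocount of 1 to −0.98 with a pseudocount of 64, which is short of 2-fold. hrg-4 ran from 0.34 to 0.50 and smf-3 from 0.18 to 0.31. With the brightness filter at the median, smf-2 was too dim to be compared and no member passed 2-fold.

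**Figure D3:**
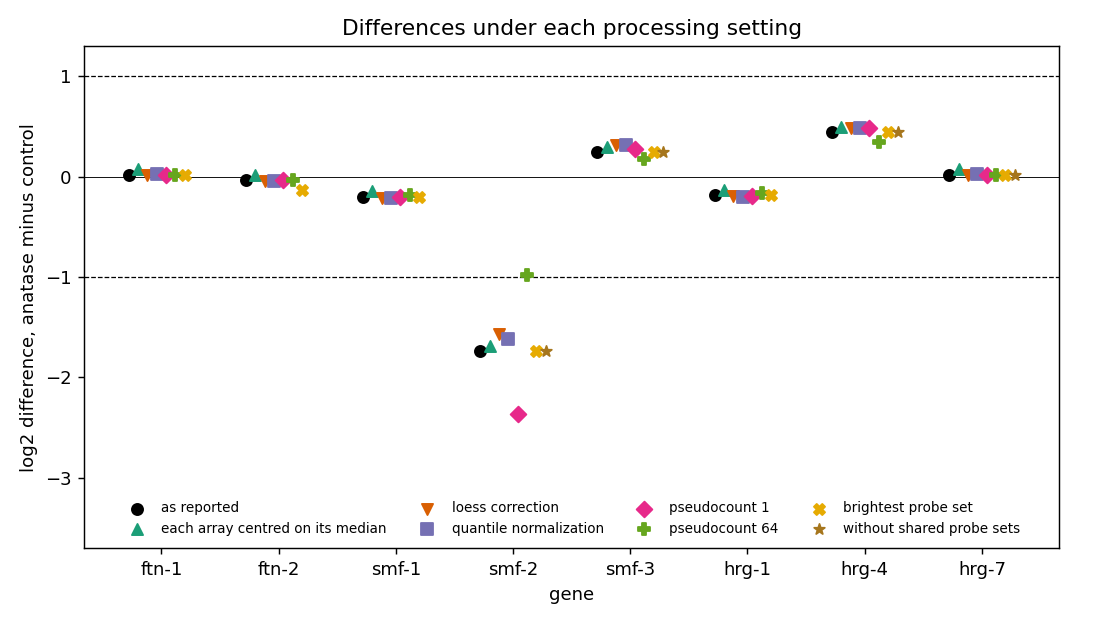
Log2 difference, anatase minus control, of each member as reported and under up to 7 other settings, with dashed lines at 2-fold. Settings move 7 of the members by little, while smf-2 ranges from −2.36 to −0.98 with the pseudocount.

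The other genes of iron, haem and metal handling were taken from 4 lists holding 49 genes, of which 41 were measured and 40 bright enough. Of these 40 genes, 15 were higher and 25 lower on the anatase array, with a median of −0.05, and 34, or 85.0%, lay within 0.5 log2 units of equal signal. Over all 13606 genes, 6364 were higher and 7232 lower, and 81.2% lay within 0.5 log2 units, so the near-equal share of the lists is close to that of all genes. Past 2-fold was 1 of the 40 genes, or 2.50%, against 4.73% of all genes.

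Iron export and regulation held 7 genes bright enough, 6 of them lower, with a median of −0.29. That median was −0.09 both with the brightest probe set of each gene and without shared probe sets, where daf-16, the gene with most probe sets in this list, was at 0.0033 and −0.09 under those choices, in that order. fpn-1.2, a homologue of the iron exporter ferroportin, had 303.7 on the anatase array and 555.2 on the control array, a log2 difference of −0.84. Its relative fpn-1.1 had 390.7 on the anatase array and 479.9 on the control array, a log2 difference of −0.29. The third relative, fpn-1.3, was too dim to be compared. aco-1, the worm's homologue of the mammalian iron regulatory protein, had 2109.9 on the anatase array and 2241.6 on the control array, a log2 difference of −0.09.

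Among the regulators, rhy-1, an enzyme-like membrane protein that restrains HIF-1 and is itself a HIF-1 target, had 1171.9 on the anatase array and 703.5 on the control array, a log2 difference of 0.72. hif-1 itself was at 0.26, with 230.9 on the anatase array and 189.8 on the control array, and egl-9, the oxygen-sensing hydroxylase that marks HIF-1 for removal, at 0.60. Each was read by 1 shared probe set whose annotation repeats the symbol under 2 gene numbers, so neither is counted in the list. vhl-1, which takes part in the removal of HIF-1 after EGL-9 has acted, had 257.3 on the anatase array and 269.9 on the control array, a log2 difference of −0.07. elt-2, the intestinal factor that drives ftn-1, was at −0.60, and its 2 probe sets gave −0.71 and −0.48. daf-16, a stress and longevity factor, was at −0.37, and its 4 probe sets ran from −0.72 to 0.0033. Intestine markers, which include elt-2, were lower for 7 of 10 genes, from −0.90 for the peptide transporter gene pept-1 to 0.16 for ges-1, and their summed intensity was 52676 on the anatase array and 58042 on the control array. Their part in the values of the intestinal genes ftn-1, smf-3 and hrg-4 was not tested. In whole worms, fewer cells of a type and less RNA per cell cannot be told apart.

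Mitochondrial iron and iron-sulfur genes held 5 genes bright enough, 3 of them higher, with a median of 0.02. Frataxin, frh-1, which helps to build iron-sulfur clusters, was at 0.28, the glutaredoxin gene glrx-5 at −0.24 and the cluster scaffold gene iscu-1 at 0.15. Other haem genes held 7, 4 of them higher, with a median of 0.05. The largest difference was that of hrg-3, a secreted haem chaperone that carries maternal haem to embryos, at 0.43 with a dim signal of 48.8 on the anatase array and 32.2 on the control array. mrp-5, which exports haem from the intestine, was at −0.28, and hrg-9, a homologue of mammalian TANGO2, at 0.26. None of the compared genes of these 3 lists, iron export and regulation included, passed 2-fold.

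Zinc, copper and other metal transporters held 21 genes, 14 of them lower, with a median of −0.05, which turned to 0.0057 with median centring. zipt-17, of the ZIP family of zinc importers, was the gene past 2-fold, with 86.3 on the anatase array and 21.1 on the control array, a log2 difference of 1.46. Another ZIP gene, zipt-16, had 20.7 on the anatase array and 52.8 on the control array, a log2 difference of −0.91. zipt-2.3, a ZIP gene of the lysosome, was at 0.54. Both zipt-17 and zipt-16 belong to the dimmest brightness group, as smf-2 does, and each was read by 1 probe set and reached the brightness limit on 1 array alone.

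**Figure D4:**
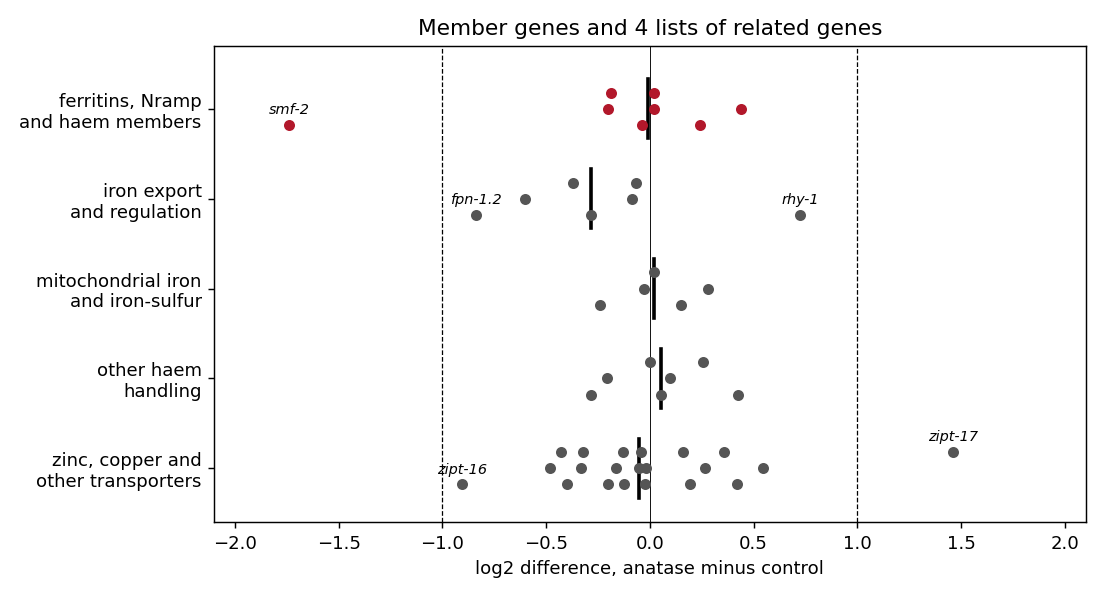
Log2 difference, anatase minus control, of each gene bright enough to be compared, for the 8 members (red) and 4 lists of related genes (grey), with a black bar at each median, vertical offsets only to part the points, and dashed lines at 2-fold. Past 2-fold lie smf-2, at −1.74, and zipt-17, at 1.46.

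Markers of other tissues gave no common direction. The 5 body wall muscle markers ran from −0.02 to 0.43, 6 neuronal markers from −0.30 for ric-4 to 0.29, and 5 germline markers from −0.14 for glp-1 to 0.09. All 5 hypodermis markers were lower, down to −0.37 for dpy-7, and 4 of 5 sperm markers were higher, up to 0.54 for spe-11. The largest muscle difference was that of myo-3. None of these markers passed 2-fold.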

How the data were processed

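Per the labels' protocols, Trizol-extracted total RNA was turned into biotinylated cRNA for an Affymetrix array. The authors deposited 1 intensity per probe set and array, on a linear scale as judged from the values. Transcriptome Analysis Console is named in the submitters' processing notes; no version, summary method or scaling is stated in the sources used here. Genes were named from the platform annotation. Of 22548 probe sets, 887 name several genes and 895 none, and these were left out of the gene comparisons and counts. They did enter the array medians, percentiles, brightness limits and scalings. The probe set naming smf-3 and daao-1 and those of hif-1 and egl-9 are reported only on their own. Gene order came from a RefSeq table of assembly WBcel235; the array names no build, so no coordinates are printed.

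Intensities were converted to log2(intensity + 16), averaged over a gene's probe sets and subtracted (anatase minus control). Brightness groups were made from the mean of both arrays. No test was run between the arrays, whose number limits the precision. The members and lists were chosen with earlier results of these data known. Named were all members, the 3 largest differences of each pathway list, each gene past 2-fold, aco-1, hif-1, elt-2 and fpn-1.1, and the largest difference of each marker list; egl-9, vhl-1, the genome neighbours, daf-16 and a few further markers stand outside that rule or were added after their values were seen. The calling of 2-fold differences was tested on simulated data. The planted changes were larger than 2-fold, in genes with a probe set brighter than those of smf-2 and zipt-17. The simulated noise was below the spread between probe sets seen here. The simulation therefore does not bear on calls in dim genes. Alternatives were centring on the median, loess with a span of 30%, quantile normalization, pseudocounts of 1 and 64, the brightest probe set, no shared probe sets, no brightness filter or 1 at the median, and thresholds of 1.5-fold and 3-fold. Python 3.11.15 was used, with statsmodels 0.14.6 for loess, pandas 2.3.3 and numpy 2.4.6 for the tables, scipy 1.17.1 for trimmed means and matplotlib 3.10.9 for plots.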

Additional observations from a re-analysis of the deposited data

How the results depend on the processing

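No paired analysis was possible because only 1 array stands on either side. Of 52 recomputed member differences, 50 stayed within the spread of a probe set. For members with 1 probe set the probe set choices repeat the reported value, so these are not 52 separate checks. smf-2 went to −2.36 at pseudocount 1 and to −0.98 at pseudocount 64. Members at least 2-fold lower numbered 0 at pseudocount 64 and 0 once the filter was set at the median, against 1 otherwise; none was at least 2-fold higher in any setting run. Over all genes, pseudocount 1 gave 423 at least 2-fold higher and 803 lower, pseudocount 64 gave 12 and 24, and filtering at the median gave 25 and 54; 638 and 1303 passed 1.5-fold, and 23 and 76 passed 3-fold. Of called genes, 35.1% were higher as reported, 41.2% with median centring, 48.7% with loess and 48.5% with quantile normalization. The iron export and regulation median was −0.087 using each gene's brightest probe set and −0.093 leaving out shared ones; at 1.5-fold this list had 1 gene higher and 2 lower. Zinc, copper and other transporters had 1 gene lower at pseudocount 1 and at 1.5-fold, and 0 higher at pseudocount 64, after filtering at the median and at 3-fold. The median of other haem genes was −0.00049 after filtering at the median. smf-2, zipt-16 and zipt-17 were dim, and the table has no detection calls.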
